A study of Mus musculus with 20 samples.

Results

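The 9 genes described here are interferon-stimulated genes, chosen by symbol: Gbp2, Gbp3, Ifit1, Ifit3, Irf7, Isg15, Usp18, Rsad2 and Oasl2. All 9 were found in each of 2 deposited tables of mouse RNA sequencing, among 24968 symbols per table. The liver table held total liver from WT mice on alcohol diet (n = 4) and on control diet (n = 4), and from mice of the genotype labelled RageΔMye on alcohol diet (n = 3) and on control diet (n = 3). All 14 liver libraries were labelled male, with 6 weeks of feeding. The second table held RAW264.7, a mouse macrophage-like cell line, after 6 hours with a complex of [O] HMGB1, an oxidised alarmin protein, and the cytokine IL1β (n = 3), or with BSA, serum albumin (n = 3). The name RageΔMye is taken to mean that myeloid cells lack Ager, which encodes the receptor RAGE, and the sources used here do not name the driver of the deletion. Values are in TPM, which are scaled to transcript length and to a fixed total per library, so that levels of different genes can be set side by side. Nothing in the labels says that libraries came from separate animals or cultures, so the p-values measure only the spread between these libraries, which may be technical.

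Interferons are cytokines that cells release on sensing viruses, microbes or misplaced nucleic acid. Type I interferons act through a receptor coupled to the kinases JAK1 and TYK2, which leads a complex with STAT2 and IRF9 to bind the interferon-stimulated response element. Interferon gamma acts through JAK1 and JAK2 and leads to binding at the gamma-activated site. In liver, hepatocytes as well as resident macrophages respond to interferons, and the response is best known from viral hepatitis. Among the members, Irf7 encodes a transcription factor that amplifies type I interferon production. Gbp2 and Gbp3 encode guanylate-binding GTPases that act against intracellular microbes and are strongly induced by interferon gamma. Ifit1 and Ifit3 encode proteins that bind viral RNA or assist in that binding. Isg15 encodes a ubiquitin-like modifier, and Usp18 the protease that removes it and also dampens the type I receptor. Rsad2 encodes viperin, an antiviral enzyme, and Oasl2 a protein of the oligoadenylate synthetase family.

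The sequences just before the start sites show how far the members share the letters of the response element. RefSeq promoter windows of build GRCm38.p6 were matched for 8 of the 9 members, all but Usp18. Letters searched were GAAANNGAAA, the core of the interferon-stimulated response element, and TTCNNNGAA, the core of the gamma-activated site, each on both strands and within 250 bases before the start. GAAANNGAAA was found in 6 of 8 members, namely Gbp2, Gbp3, Ifit1, Ifit3, Isg15 and Rsad2, and in 3.46% of the 27025 genes with a window. TTCNNNGAA was found in 0 of 8 members and in 8.13% of those genes. The 4 windows below hold the 160 bases before the RefSeq start, in the direction of the gene, with matches to GAAANNGAAA in capitals. Gbp2 and Gbp3 are shown because they differed most between the diets in WT liver. Isg15 is shown because neighbours among its 3 matches overlap, and Irf7 as a member without a match.
Gbp2, chr3:142620503-142620662, plus strand: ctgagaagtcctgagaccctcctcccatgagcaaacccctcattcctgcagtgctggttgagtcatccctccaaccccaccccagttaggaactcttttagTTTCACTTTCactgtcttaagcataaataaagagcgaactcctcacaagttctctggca
Gbp3, chr3:142559884-142560043, plus strand: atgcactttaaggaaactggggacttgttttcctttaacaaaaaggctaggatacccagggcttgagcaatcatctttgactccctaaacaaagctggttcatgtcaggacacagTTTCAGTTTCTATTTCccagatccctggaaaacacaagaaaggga
Isg15, chr4:156200819-156200978, minus strand: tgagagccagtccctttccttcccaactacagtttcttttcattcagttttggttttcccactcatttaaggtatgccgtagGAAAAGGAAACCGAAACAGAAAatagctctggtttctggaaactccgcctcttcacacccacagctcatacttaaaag
Irf7, chr7:141266425-141266584, minus strand: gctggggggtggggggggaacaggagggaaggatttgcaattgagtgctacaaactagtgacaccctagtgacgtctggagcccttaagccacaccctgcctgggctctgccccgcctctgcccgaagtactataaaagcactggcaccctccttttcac
The match in Gbp2 lies 59 to 50 bases before the RefSeq start, and the matches in Gbp3 lie 45 to 36 and 39 to 30 bases before it, sharing 4 bases. By GENCODE vM21, both GTPase genes lie on chromosome 3, Gbp3 at chr3:142560026-142573209 and Gbp2 at chr3:142620602-142638008, on the same strand. For Gbp2, Gbp3 and Irf7 the GENCODE gene starts inside the RefSeq window shown, and the match in Gbp2 lies just within the GENCODE gene. A second RefSeq start of Gbp3, farther along the gene, has no match in its own window. A match describes the letters, and a missing match says only that they are not in this window.

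Facts of the libraries limit what the members can show outside WT. The number of genes above 0 was 7592 to 8499 in libraries labelled RageΔMye, 8629 to 9229 in RAW264.7 and 15109 to 15595 in WT. The share of TPM in genes with an exon overlapping another gene's exon on the other strand was 55.8% to 61.7% in libraries labelled RageΔMye, 56.0% to 58.9% in RAW264.7 and 15.4% to 18.3% in WT. Ager, the gene that the genotype label names, was listed at 93.1 to 166 TPM where RageΔMye is the label and at 0.0194 to 0.478 TPM in WT. A loss in myeloid cells alone need not lower Ager in total liver, so these values do not settle the genotype. The cause of the difference was not tested. All 6 hepatocyte markers were above 1 TPM in every liver library and at 0 in every RAW264.7 library, and RAW264.7 libraries had 5 to 7 of 10 macrophage and monocyte markers above 1 TPM. Against the label male, Xist was at 17.8 to 27.3 TPM on alcohol diet and 0.00165 to 0.135 TPM on control diet in WT, where the summed level of 4 Y-linked genes was 0 to 0.0161 TPM on alcohol diet and 11.3 to 16.6 TPM on control diet. In libraries labelled RageΔMye the same Y-linked sum was 0.276 to 1.74 TPM on alcohol diet and 3.16 to 4.50 TPM on control diet, also without overlap, while Xist, at 0.322 to 0.990 TPM on alcohol diet and 0 to 3.10 TPM on control diet, overlapped. Xist shares exon stretches with Tsix on the opposite strand, so reads of the 2 genes cannot be told apart unless counting used strand. Diet and these differences in sex-linked transcripts cannot be told apart in either genotype, and every diet result below is a difference between those libraries as labelled.

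In WT liver the alcohol diet went with more of the guanylate-binding GTPases Gbp2 and Gbp3 and, less firmly, of Ifit3 and Oasl2. Gbp2 averaged 10.3 ± 3.37 TPM on alcohol diet and 2.00 ± 0.421 TPM on control diet (SD, n = 4 each), and Gbp3 averaged 7.45 ± 2.78 TPM on alcohol diet and 1.90 ± 0.430 TPM on control diet. By limma on log2(TPM + 1), 4 of the 8 members tested passed at an adjusted p under 0.05, and all 4 were higher on alcohol diet. Of all 9744 genes tested, 31.2% passed in either direction, with 13.3% higher and 17.9% lower. The median log2 fold change was 0.73 over the 8 members tested and -0.05 over all genes tested. Ifit1 was not tested, because its mean stayed under 1 TPM on both diets, and Rsad2 reached that mean on alcohol diet alone.

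**Figure D1:**
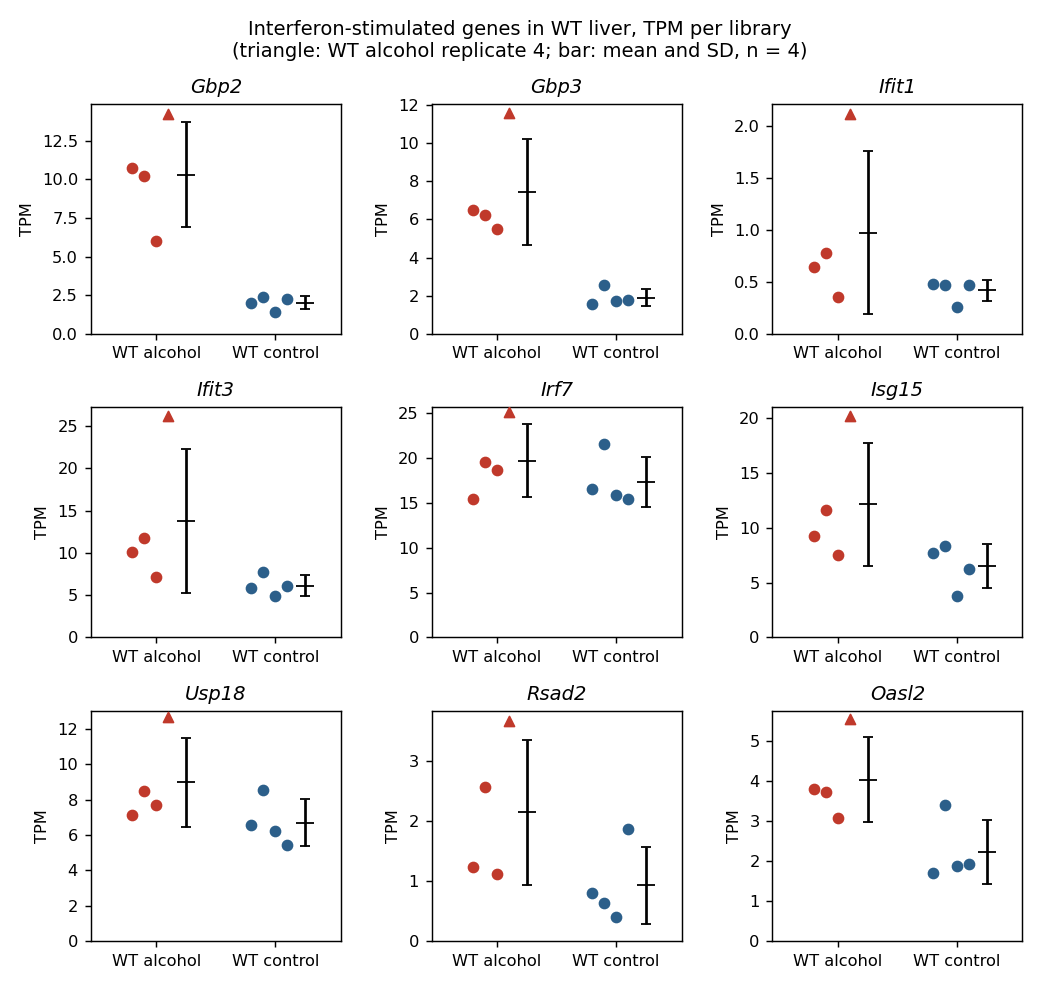
TPM of the 9 members in each WT liver library, alcohol diet in red at the left and control diet in blue at the right, with the mean and SD (n = 4) beside the points and WT alcohol replicate 4 as a triangle. The libraries of the diets do not overlap for Gbp2 and Gbp3 and overlap for the other 7 members, and the triangle is the highest point of every panel.

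Gbp2 was at 10.7, 10.2, 6.03 and 14.3 TPM in WT alcohol replicates 1 to 4, against 1.96, 2.38, 1.42 and 2.23 TPM in WT control replicates 1 to 4. Gbp3 was at 6.49, 6.23, 5.52 and 11.6 TPM on alcohol diet, against 1.59, 2.54, 1.73 and 1.75 TPM on control diet. For both genes every alcohol library lay above every control library, which held for no other member and for 12.3% of all genes tested. On the log2(TPM + 1) scale, which understates changes of low genes, Gbp2 rose by 1.87 (SE 0.217, limma adjusted p = 0.00024) and Gbp3 by 1.50 (SE 0.203, limma adjusted p = 0.000577). The ratio of mean TPM, alcohol over control, was 5.16 for Gbp2 and 3.92 for Gbp3. In bulk liver, a change in the number of cells of a type and a change in RNA per cell cannot be told apart.

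The other GTPases of the family were lower in level, and the 2 that reached the filter are named after their values were seen. Gbp7 rose by 0.50 (SE 0.153, limma adjusted p = 0.0312), with 0.830 to 2.14 TPM on alcohol diet and 0.530 to 0.748 TPM on control diet. Gbp6 was at 0.796 to 2.77 TPM on alcohol diet and 0.611 to 1.45 TPM on control diet (limma adjusted p = 0.0686). Gbp4, Gbp5, Gbp8, Gbp9 and Gbp10 had means under 1 TPM on both diets and were not tested. Gbp3 shares 3.75% of its distinct 50-base stretches with other genes, led by Gbp7, and Gbp2 shares 2.03%, with Gbp2b.

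Of the RNA-binding members, Ifit3 was at 10.04, 11.7, 7.13 and 26.2 TPM in WT alcohol replicates 1 to 4, against 5.78, 7.78, 4.92 and 6.01 TPM in WT control replicates 1 to 4. All but the lowest alcohol library lay above every control library. Ifit3 rose by 0.91 (SE 0.309, limma adjusted p = 0.0462), close to the threshold. Its level is uncertain in another way, since 51.2% of its distinct 50-base stretches also occur in Ifit3b and the authors' counting could split reads between them. Ifit1, its neighbour on chromosome 19, was at 0.643, 0.777, 0.351 and 2.12 TPM on alcohol diet, against 0.476, 0.466, 0.260 and 0.465 TPM on control diet. Ifit1 was thus the lowest of the 9 members on both diets.

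Oasl2 was at 3.80, 3.72, 3.07 and 5.55 TPM in WT alcohol replicates 1 to 4, against 1.69, 3.40, 1.88 and 1.94 TPM in WT control replicates 1 to 4. Control replicate 2 reached into the alcohol range. Oasl2 rose by 0.65 (SE 0.190, limma adjusted p = 0.0261). Rsad2 was at 1.23, 2.57, 1.12 and 3.67 TPM on alcohol diet, against 0.801, 0.639, 0.402 and 1.86 TPM on control diet, with overlap. It did not pass, at a log2 fold change of 0.68 (SE 0.282, limma adjusted p = 0.089, 95% interval 0.06 to 1.31).

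The modifier gene Isg15 was at 9.28, 11.6, 7.52 and 20.2 TPM in WT alcohol replicates 1 to 4, against 7.68, 8.30, 3.73 and 6.27 TPM in WT control replicates 1 to 4. The diets overlapped through the lowest alcohol library, and Isg15 did not pass (log2 fold change 0.77, SE 0.288, limma adjusted p = 0.065). Usp18, whose product removes Isg15 from proteins, was at 7.12, 8.51, 7.68 and 12.7 TPM on alcohol diet, against 6.60, 8.56, 6.24 and 5.45 TPM on control diet. The control libraries lay within or below the alcohol range (log2 fold change 0.36, limma adjusted p = 0.162, 95% interval -0.05 to 0.77). Irf7, the transcription factor, had the highest mean of the members on both diets in WT, although Ifit3 exceeded it in alcohol replicate 4. Irf7 was at 15.5, 19.6, 18.7 and 25.2 TPM on alcohol diet, against 16.6, 21.5, 15.9 and 15.4 TPM on control diet. Its libraries were mixed between the diets (log2 fold change 0.17, limma adjusted p = 0.459, 95% interval -0.19 to 0.52).

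**Figure D2:**
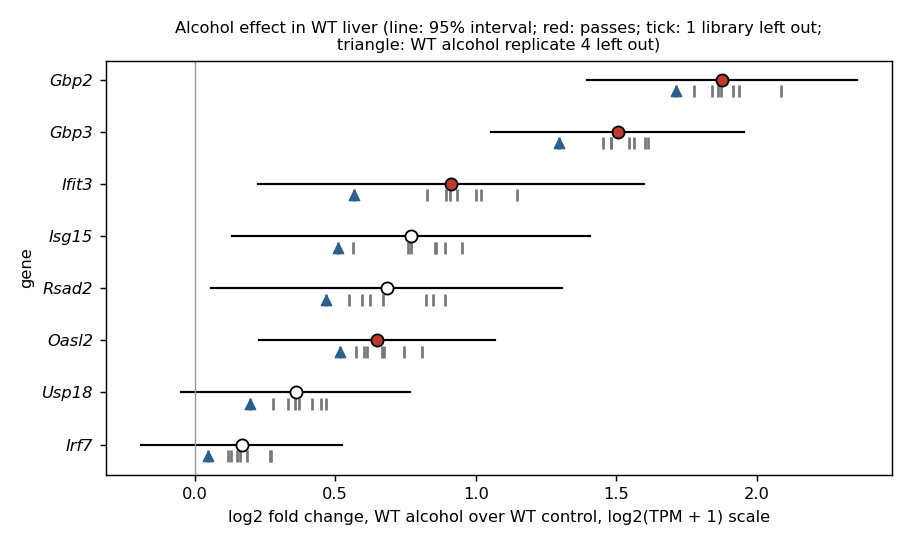
Log2 fold change of the 8 members tested in WT liver, alcohol over control diet, on the log2(TPM + 1) scale, with 95% intervals as lines and red points for members that passed. Ticks under a line give the value with 1 library left out and the triangle that without WT alcohol replicate 4, which is the lowest for every member, at 1.71 for Gbp2 and 0.05 for Irf7.

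WT alcohol replicate 4 was the highest of the 8 WT libraries for all 9 members, against 18.8% of all genes tested, and the highest of the 4 alcohol libraries for 42.5% of them. Its level over the mean of the other 3 alcohol libraries was 1.40 times for Irf7, 1.58 times for Gbp2 and 3.59 times for Ifit1, with the other members between. Without this library, Gbp2 and Gbp3 still passed and their libraries still did not overlap, with ratios of mean TPM of 4.50 and 3.20. Ifit3 (log2 fold change 0.57, limma adjusted p = 0.0547) and Oasl2 (0.52, limma adjusted p = 0.0639) then did not pass. Ifit3 passed in 1 and Oasl2 in 4 of the 8 fits that left out 1 WT library each, while Gbp2 and Gbp3 passed in all 8. A joint fit of all 14 liver libraries passed Gbp3 alone, with Gbp2 at a limma adjusted p of 0.0842.

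Other genes of the pathway were read from lists chosen with earlier results of these data known. Of 23 further type I interferon targets tested in WT, 6 were higher and 0 lower on alcohol diet, with a median log2 fold change of 0.34. Zbp1, a sensor of unusual nucleic acid, rose by 1.19 (SE 0.188, limma adjusted p = 0.00147), at 14.7 to 23.4 TPM on alcohol diet and 5.03 to 9.19 TPM on control diet. Oas1a rose by 0.75 (limma adjusted p = 0.0189), Trim30a by 0.54 (limma adjusted p = 0.00812) and Slfn5 by 0.43 (limma adjusted p = 0.0268). Of 19 genes for GBP and IRG GTPases, antigen processing and CXCR3 ligands, 7 were higher and 0 lower, with a median of 0.44. The IRG GTPase gene Tgtp1 rose by 1.05 (limma adjusted p = 0.00791), and Igtp, of the same family, rose by 1.00, at 36.4 to 105 TPM on alcohol diet and 26.4 to 36.4 TPM on control diet (limma adjusted p = 0.0173). Tapbp, for the peptide-loading protein tapasin, rose by 0.43 (limma adjusted p = 0.0219), and Cxcl9, a T cell chemokine gene, by 0.73 (limma adjusted p = 0.0234). The background of 13.3% higher genes applies to each of these counts.

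**Figure D3:**
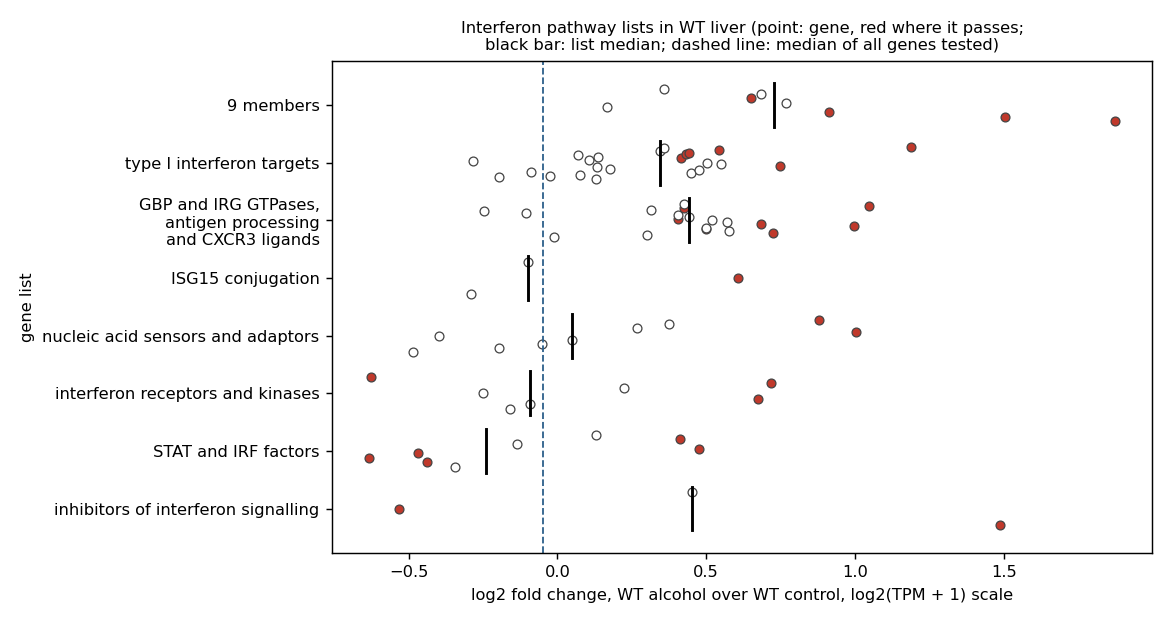
Log2 fold change of each tested gene in WT liver, alcohol over control diet, on the log2(TPM + 1) scale, by list from the members at the top to inhibitors of signalling at the bottom, red where the gene passed, with the median of a list as a black bar and that of all genes tested (-0.05) as a dashed line. The medians of the members, of the type I targets and of the GTPase and antigen-processing list lie at 0.73, 0.34 and 0.44, while the STAT and IRF factors have a median of -0.24.

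The signalling parts of the pathway went in both directions. None of 8 interferon genes reached the filter, and Ifnb1 and Ifng were at most 0.0637 and 0.0361 TPM in any WT library. Of 7 receptor and kinase genes, Ifngr1 for the interferon gamma receptor rose by 0.68 (limma adjusted p = 0.00241) and Jak1 by 0.72 (limma adjusted p = 0.0233), while Tyk2 fell by 0.63 (limma adjusted p = 0.0167). Among the STAT and IRF factors, Irf8 rose by 0.48 (limma adjusted p = 0.0267). Irf3 fell by 0.63 (limma adjusted p = 0.016), Irf2 by 0.44 (limma adjusted p = 0.0215) and Irf5 by 0.47 (limma adjusted p = 0.033). Stat2 and Irf9, which act together in the type I response and were chosen after their values were seen, had log2 fold changes of 0.13 and -0.14 and did not pass. Of 3 inhibitors, the phosphatase gene Ptpn2 rose by 1.49, at 20.3 to 41.8 TPM on alcohol diet and 8.31 to 13.1 TPM on control diet (limma adjusted p = 0.000949), and Ptpn6 fell by 0.53 (limma adjusted p = 0.0258). Of 9 sensors and adaptors, Myd88 rose by 1.00 (limma adjusted p = 0.00312) and Tmem173, which encodes STING, by 0.88 (limma adjusted p = 0.00497). Of 3 genes for attaching Isg15 to proteins, the activating enzyme gene Uba7 rose by 0.61 (limma adjusted p = 0.0198). Slfn5, Tapbp, Myd88, Jak1, Tyk2, Irf3, Irf5 and Ptpn6 overlap an exon on the opposite strand, so their reads and those of the partner cannot be told apart unless counting used strand.

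Markers of some other cells moved with the diet beside these genes, and their part in the results was not tested. The summed level of 7 T and NK cell markers was 4.83 to 8.56 TPM on alcohol diet and 2.11 to 3.88 TPM on control diet. None of the 7 was at 0 on alcohol diet and at most 1 in a control library. That of 6 neutrophil markers was 101 to 153 TPM on alcohol diet and 29.3 to 74.8 TPM on control diet. The sum of 6 endothelial markers was 73.9 to 162 TPM on alcohol diet and 46.7 to 118 TPM on control diet, with overlap. By gene, 3 of these 6 were higher and 0 lower, with a median log2 fold change of 0.87. Among them, Lyve1 rose by 1.64 (limma adjusted p = 0.000979). Of 5 neutrophil markers tested 4 were higher, of 5 T and NK cell markers 2, and of 9 macrophage and monocyte markers 1, with 0 lower in each. The background of 13.3% higher genes applies here too. Sums for 10 macrophage and monocyte markers, at 126 to 263 TPM on alcohol diet and 162 to 169 TPM on control diet, overlapped. Plasmacytoid dendritic cells are a main source of type I interferon. Their 5 markers summed to 149 to 185 TPM on alcohol diet and 115 to 181 TPM on control diet, with overlap. Only Bst2 was above 1 TPM in WT, at 148 to 183 TPM on alcohol diet and 114 to 180 TPM on control diet. The sum is thus nearly all Bst2, which is also among the type I interferon targets listed here, so it does not give the level of these cells. Siglech, another of these markers, was at 0.144 to 0.290 TPM on alcohol diet and 0.0647 to 0.376 TPM on control diet.

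Over the 8 WT libraries, the non-members closest to the mean profile of the 8 members tested were Krt8, Prom1, Gstt2, Fam84b and Rhoc, among 9736 genes compared. Likeness was the root mean square difference of log2(TPM + 1) between profiles centred on their own means, and it was 0.140 for Krt8, a keratin gene, and 0.175 for Rhoc. The members' own distances to that mean ran from 0.190 for Oasl2 to 0.527 for Gbp2, so that Gbp2 lay farthest from the profile of its own group.

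In libraries labelled RageΔMye the members gave few values above 0. Of the 54 member values there, 61.1% were listed at 0, against 36.3% of values of genes without and 24.6% of values of genes with an overlap on the opposite strand (genes with a WT mean of at least 1 TPM). The member share includes Ifit1, whose WT mean lay under 1 TPM, and the genes compared were not matched to the members in level. Since 1 to 3 of 14 housekeeping genes were also at 0 in each of these libraries, a 0 is given only as listed at 0. Most values above 0 that could be compared lay near whole multiples of a step, as TPM made from very few whole reads also do. Isg15, at 17.3, 0 and 14.6 TPM in RageΔMye alcohol replicates 1 to 3, against 0, 0 and 115 TPM in RageΔMye control replicates 1 to 3, shows this best. Its values of 17.3 and 14.6 TPM equalled the most frequent value above 0 in those libraries, shared by 161 to 180 genes per library, and 115 TPM was 8 times that value in its own library. Each value was divided by the most frequent value of its library, and the smallest ratio of a gene was taken as its step, so that 1 value of each of the 8 members above 0 was at 1 step by construction. The other 13 values, from 6 members, lay within 0.158 of a whole number of steps, with a median distance of 0.027, and 2 of them were at 1 step. For Gbp2 and Rsad2 no other value was above 0, so nothing can be said of their steps.

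The smallest value above 0 in these libraries exceeded every WT control library for 6 of the 8 members that had any. For Gbp2 it was 5.70 TPM, above the 2.38 TPM that was the highest WT control value, so a level like that of WT controls lay under the smallest value seen here. Gbp2 was listed at 0, 0 and 5.70 TPM in RageΔMye alcohol replicates 1 to 3, and at 0 in all 3 RageΔMye control replicates. The log2 fold change of Gbp2 was 0.91 (SE 0.877, limma adjusted p = 0.751, 95% interval -1.12 to 2.95), an estimate that rests on 1 library above 0. The WT alcohol values of Gbp2, at 6.03 to 14.3 TPM, lay above 5.70 TPM. Gbp3 was listed at 0 in all 6 libraries and was not tested.

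**Figure D4:**
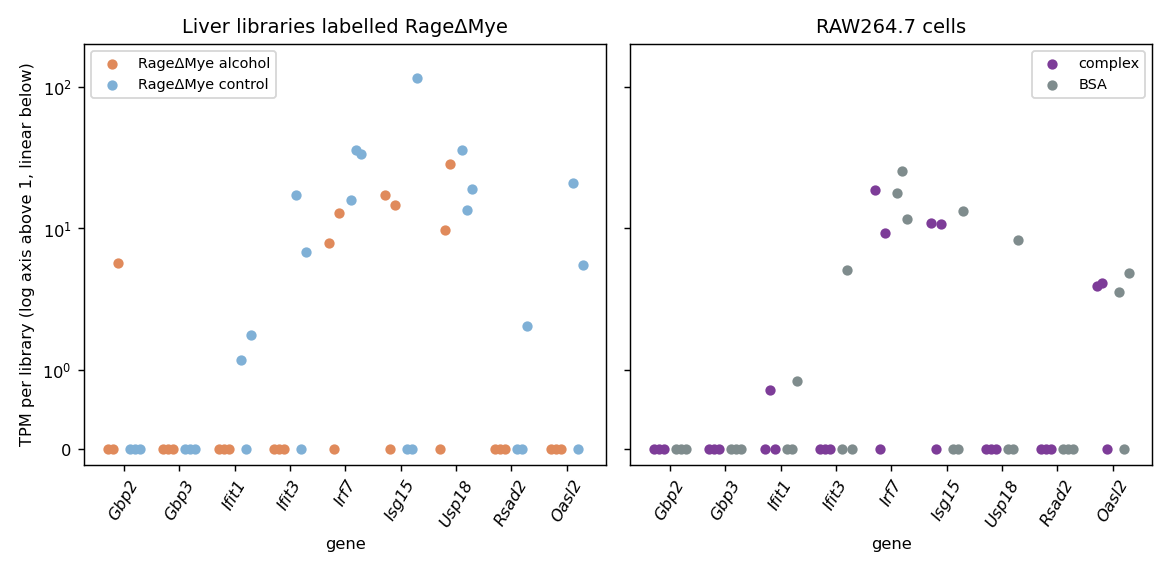
TPM of the 9 members per library on an axis that is logarithmic above 1 and linear below, with RageΔMye alcohol (orange) left of RageΔMye control (light blue) in the left panel and complex (purple) left of BSA (grey) in the right panel. Most points lie at 0, and in the left panel the control libraries reach higher than the alcohol libraries for every member but Gbp2 and Gbp3.

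Of the 6 members tested in libraries labelled RageΔMye, 0 passed by limma, where 0.0374% of 10686 genes passed. At an unadjusted p under 0.05 stood 1 member, Irf7, where 6.99% of genes did. Irf7 was at 7.85, 0 and 12.8 TPM on alcohol diet, against 15.9, 35.7 and 33.3 TPM on control diet, without overlap, as for the Y-linked sum (log2 fold change -2.48, SE 1.02, limma adjusted p = 0.672). No overlap in the lower direction held for 5.85% of the genes tested there. Irf7 has an exon overlapping Phrf1 on the opposite strand, so its reads and those of Phrf1 cannot be told apart unless counting used strand. The same holds for Usp18, with Gm44148. Usp18 was at 0, 9.77 and 28.6 TPM on alcohol diet, against 35.5, 13.5 and 18.8 TPM on control diet, with overlap. Ifit3 was listed at 0 in all 3 alcohol libraries, against 17.2, 0 and 6.80 TPM on control diet. Oasl2 was likewise listed at 0 in all 3 alcohol libraries, against 21.1, 0 and 5.57 TPM on control diet. Ifit1 and Rsad2, not tested, were at 0 on alcohol diet and at most 1.77 and 2.05 TPM on control diet. No gene of the other interferon lists passed there.

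Across the liver groups, the mean was highest in WT alcohol for Gbp2, Gbp3, Ifit3 and Rsad2, and in RageΔMye control for Ifit1, Irf7, Isg15, Usp18 and Oasl2. Libraries labelled RageΔMye had fewer genes above 0 and more TPM in opposite-strand overlaps than WT, which cannot be told apart from genotype in this ranking. The RageΔMye control mean of Isg15, 38.3 TPM, comes from 3 libraries of which 2 were listed at 0. Gbp2 and Gbp3 were the members whose highest group did not overlap the next, WT control. For each of the other 7 members the libraries of the highest group overlapped those of the next, and for 6 of these, all but Rsad2, the means also differed by less than the larger SD of the pair. In WT alone, the order of means on alcohol diet ran from Irf7 and Ifit3 down to Rsad2 and Ifit1.

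The difference of the alcohol effect, RageΔMye minus WT, passed for 0 of 8 members tested by limma with weights per genotype, where 0.506% of 12066 genes passed. At an unadjusted p under 0.05 stood 2 members, Oasl2 (limma adjusted p = 0.483) and Irf7 (limma adjusted p = 0.489), where 8.5% of genes did. The difference was -2.65 for Irf7 (SE 1.09), with an effect of -2.48 in libraries labelled RageΔMye and 0.17 in WT. The overlap of Irf7 with Phrf1 on the opposite strand limits this value too. For Gbp2 it was -0.96 with a 95% interval of -3.73 to 1.81, which spans a WT effect carried over in full as well as a loss of it. For Gbp3, listed at 0 in all 6 libraries labelled RageΔMye, the difference of -1.50 is the WT effect with its sign turned, and a fit without weights passed it (limma adjusted p = 0.0269).

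In RAW264.7 cells the complex of [O] HMGB1 and IL1β gave no member call, and 70.4% of the 54 member values were listed at 0. Gbp2, Gbp3 and Rsad2 were listed at 0 in all 6 libraries. Of 5 members tested, 0 passed by limma, where 0.18% of 10556 genes passed, and 0 stood at an unadjusted p under 0.05, where 8.31% did. Irf7 was at 18.8, 0 and 9.32 TPM in complex replicates 1 to 3, against 17.7, 25.5 and 11.6 TPM in BSA replicates 1 to 3 (log2 fold change -1.65, 95% interval -4.17 to 0.88). Isg15 was at 10.9, 0 and 10.8 TPM with complex, against 0, 0 and 13.4 TPM with BSA. Each of these 3 values of Isg15 above 0 equalled the most frequent value of its library, so the groups differed by 1 such value in 1 library. Oasl2 was at 3.94, 4.13 and 0 TPM with complex, against 3.59, 0 and 4.85 TPM with BSA, and its values above 0 were alike after division by the most frequent value of the library. The steps were less regular for Irf7, whose 25.5 TPM in BSA replicate 2 was 2.647 times its smallest ratio, a distance of 0.353 from a whole number. Usp18 and Ifit3 were listed at 0 with complex, and above 0 in 1 BSA library each, at 8.28 and 5.12 TPM. Ifit1 was at 0.748 TPM in 1 complex library and 0.865 TPM in 1 BSA library, and at 0 in the other libraries.

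Other genes of the pathway stood apart between the RAW264.7 groups in both directions, although none passed. Of 60 genes of the other interferon lists tested, 27 had a log2 fold change above 0. The groups did not overlap for 8 of them in the higher direction, which held for 5.63% of all genes tested, and for 2 in the lower direction, which held for 7.91%. Of 11 genes tested for GTPases, antigen processing and CXCR3 ligands, 4 were above 0, with a median of -0.28, and of 17 type I targets 9 were, with a median of 0.06. The median of all genes tested was -0.09. Cxcl10, a CXCR3 ligand gene, was at 6.70, 6.95 and 6.51 TPM with complex and was listed at 0 in all 3 BSA libraries (limma adjusted p = 0.111). These values lay under the most frequent values above 0 of the complex libraries, 10.9, 11.5 and 10.8 TPM, so they may rest on very few reads. Steps were worked out for members only. Socs3, an inhibitor of cytokine signalling, was at 11.5, 12.4 and 10.2 TPM with complex, against 0, 1.27 and 0 TPM with BSA (limma adjusted p = 0.118). Oasl1, a relative of Oasl2, was at 71.8, 48.7 and 45.8 TPM with complex, against 5.22, 21.3 and 28.9 TPM with BSA (limma adjusted p = 0.464). The groups did not overlap for any of these 3 genes. In the lower direction, Ifngr2, for a chain of the interferon gamma receptor, was at 9.16, 0 and 4.51 TPM with complex, against 16.6, 18.7 and 16.9 TPM with BSA, without overlap (log2 fold change -2.26, limma adjusted p = 0.522). The phosphatase gene Ptpn2 was at 4.66, 0 and 0 TPM with complex, against 12.5, 4.62 and 11.1 TPM with BSA, and the groups overlapped (log2 fold change -2.45, limma adjusted p = 0.476). Cxcl10 and Oasl1 overlap an exon on the opposite strand. Among the members, Irf7 (with Phrf1), Usp18 (with Gm44148) and Gbp2 (with Mir6381) do so too, and the strand setting of the counting is not given in the sources used here.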

How the data were processed

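The authors deposited 1 table for liver (14 libraries) and 1 for RAW264.7 cells (6 libraries). The authors deposited the values as TPM, scaled to one total per library before deposit. That unit was read from the column sums, since the file headers name none. Per the labels' protocols the kit kept strand, and per the submitters' processing notes the build was mm10. Of the aligner, counter, strand setting and annotation, nothing is said in the sources used here. Read depth is unknown, so no counting interval is given. Of 24972 rows per table, 4 were left out because their symbols, altered to dates in the tables, occurred more than once.

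A gene was tested if a group of the fit averaged 1 TPM or more. Tests used limma 3.58.1 (R 4.3.3) with intensity trend on log2(TPM + 1), with Benjamini-Hochberg adjustment over all genes tested. WT, RageΔMye and RAW264.7 libraries were fitted separately, and the difference between genotypes was fitted on all 14 liver libraries with variance weights per genotype. The fits were tested on simulated data. Exon overlaps, matched by symbol to GENCODE vM21, came from bedtools 2.31.1. The members, lists, fits and alternatives were chosen with earlier results of these data known. Named were the 9 members, of each list the up to 4 passing genes of smallest p (or else up to 2 others, as values), and the 5 profiles nearest to the members. A gene of the lists is not reported here by name. Alternatives covered pseudocounts, filters, thresholds, scalings, a joint fit, a block and each library left out.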

Additional observations from a re-analysis of the deposited data

Results flagged for a closer look

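Within groups of 4 libraries, a value was singled out by Dixon's criterion at the 95% level, from its gap to the nearest other over the group's range, which chance gives in about 1 in 20 groups. That held for 6 of 64 groups of 4. Gbp3 in WT alcohol replicate 4 stood apart, at 11.6 TPM, as did Gbp3 in WT control replicate 2 at 2.54 TPM, and Gbp3 still passed without either library. Ifit1 in WT control replicate 3 was low at 0.260 TPM, and Oasl2 in WT control replicate 2 was high at 3.40 TPM. Of the sex-linked transcripts, Xist reached 0.135 TPM in WT control replicate 2 and Eif2s3y 0.0161 TPM in WT alcohol replicate 4, both near 0 beside the level on the other diet. The difference of Xist between the diet groups itself differed between genotypes by -4.79 on the log2 scale, RageΔMye minus WT (limma adjusted p = 0.0175). Xist belongs to the sex-linked transcripts that cannot be told apart from diet, so this is not given as a response to alcohol.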

How the results depend on the processing

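In WT liver, 4 members passed. That count was 3 or 4 with other pseudocounts, a filter at 5 TPM, no intensity trend and 3 other scalings. It was 2 with no filter, 2 with adjusted p under 0.01, 2 with at least 2-fold, 1 (Gbp3) in the joint fit, and 2 to 5 with each library left out. It was 2 without WT alcohol replicates 1 or 4 or WT control replicates 1 or 3. Without WT alcohol replicate 3 Isg15 also passed (limma adjusted p = 0.0384), and without WT control replicate 4 Rsad2 did (0.0243). Rescaling without the Mup genes moved the median of all WT genes by -0.13 and left Gbp2 at 1.78, Gbp3 at 1.41 and Ifit3 at 0.78 (limma adjusted p = 0.0700), with all 8 members still above 0. Over all genes in WT, 3040 passed, against 1879 with a filter at 5 TPM, 1446 at p under 0.01, 680 at 2-fold and 336 in the joint fit.

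In libraries labelled RageΔMye and in RAW264.7 cells, 0 members passed under every alternative run. For the difference between genotypes, 1 member (Gbp3) passed without weights and 0 under the others. Over all genes, the count for RageΔMye was 4, and 9 with a filter at 5 TPM, 37 without trend, 7 with quantile normalization or without overlapping genes, 657 in the joint fit, 0 at p under 0.01, and 0 to 5 with a library left out. For the difference it was 61, against 128 with no filter, 18 at p under 0.01 and 463 without weights. For RAW264.7 it was 19, against 7 at p under 0.01, 12 without overlapping genes and 2 to 9 with a library left out. The cause was not tested.

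Signs turned only for members that did not pass. Isg15 in libraries labelled RageΔMye was -0.15 with pseudocount 5 and -0.71 to 2.72 with a library left out. Its difference between genotypes was 0.64 with pseudocount 0.1, 0.076 without overlapping genes and -1.48 to 1.95 with a library left out. Oasl2 in RAW264.7 was 0.049 with quantile normalization and -0.82 to 0.75 with a library left out.

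The replicate block gave 0 members and 0 genes in all, in RageΔMye as in RAW264.7. Deviations of same-numbered libraries had correlations between -0.0249 and 0.018, and those of differently numbered libraries between -0.0374 and 0.0378. With so few values above 0, these correlations cannot decide whether the numbers pair the libraries. The WT groups share no number in the labels. Few values above 0 limit what RageΔMye and RAW264.7 libraries can show.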
